A study of Mus musculus with 19 samples.

Results

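The major urinary proteins (Mups) are small secreted lipocalins encoded by a cluster of closely related genes on mouse chromosome 4. The genes described are Mup3, Mup7, Mup10, Mup11, Mup15, Mup16, Mup17, Mup18, Mup19 and Mup20, each found in the deposited liver expression table by its gene symbol. They are 10 of the 52110 named entries of that table, and all 10 were among the 10577 genes tested, which had a mean of at least 1 FPKM (fragments per kilobase of gene, relative to the mapped fragments of the sample) over all samples. The genes were chosen by their levels in the sham groups, where the difference between the diets was already known, so that difference is described here without a test. Livers of wild-type (WT) mice were sequenced in 19 samples: 4 CDAHFD_RIC, 5 CDAHFD_sham, 5 NC_RIC and 5 NC_sham. CDAHFD is a high-fat diet that lacks choline, has defined amino acids and was fed to produce steatohepatitis, and NC is normal chow. RIC is remote limb ischemic conditioning, brief stops of limb blood flow followed by reflow, and sham mice underwent a mock procedure. The sources used here do not give age, sex, strain, diet duration or the conditioning schedule, and the samples are not said to be separate animals, so p-values measure the spread between samples.

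Mups are made chiefly by hepatocytes, enter the blood and pass through the kidney into urine, where they bind volatile pheromones in a barrel-shaped pocket and also act as scent signals themselves. In mouse liver their transcription is higher in males and depends on pulsatile growth hormone, acting through the growth hormone receptor and STAT5, with thyroid hormone, glucocorticoids and androgens as further inputs. Mup20 encodes darcin, the male sex pheromone that attracts females and promotes learning of the scent owner's place. Mup3 encodes another divergent member. The remaining 8 genes belong to the block of near-identical copies in the middle of the cluster, whose products differ at few residues.

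The sequences show why the 10 genes cannot all be read with the same confidence. In the GENCODE annotation of GRCm38, the assembly that mm10 names, the Mup cluster spans chr4:59956804-62150863 with 22 protein-coding genes and 26 pseudogenes, and each of the 10 genes lies on the minus strand with 7 exons. Mup7 begins the series at chr4:60066469-60070475, Mup19 lies at chr4:61778324-61782269, and Mup20 (chr4:62050234-62054158) and Mup3 (chr4:62083476-62087342) stand at the far end. The same 90 bases of coding sequence are given for both divergent genes and for 4 of the 8 copies, with the bases that differ from Mup17 in capitals. They start at coding base 115 in Mup3, 106 in Mup20 and 103 in the 4 copies.
Mup3: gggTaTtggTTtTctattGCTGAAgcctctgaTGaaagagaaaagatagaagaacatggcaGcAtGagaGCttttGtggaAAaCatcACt
Mup20: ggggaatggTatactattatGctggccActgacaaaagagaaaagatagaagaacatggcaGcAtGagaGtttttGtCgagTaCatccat
Mup17: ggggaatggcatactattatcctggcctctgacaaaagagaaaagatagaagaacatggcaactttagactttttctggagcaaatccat
Mup7: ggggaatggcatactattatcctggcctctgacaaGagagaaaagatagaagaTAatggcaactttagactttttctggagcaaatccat
Mup15: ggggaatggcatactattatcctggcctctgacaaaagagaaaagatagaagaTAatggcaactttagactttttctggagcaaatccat
Mup16: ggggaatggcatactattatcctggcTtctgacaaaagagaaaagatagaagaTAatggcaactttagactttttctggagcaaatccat
Mup3 differed from Mup17 at 24 of the 90 bases and Mup20 at 11, against 2 or 3 in the copies. The stretch was picked as the one without gaps where Mup3 and Mup20 differ most often from Mup17. This contrast was therefore set by the choice and does not measure divergence over the whole coding sequence. Mup10, Mup11, Mup18 and Mup19 carried the same 90 bases as Mup15.

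Over whole coding sequences the 8 copies were 98.3% to 99.8% identical to each other, with a median of 98.9% over 28 pairs. Mup20 was 90.1% to 91.3% identical to those copies and Mup3 82.3% to 83.8%, and Mup3 and Mup20 were 87.0% identical to each other. Of the 100-base windows along the Mup3 transcript, 2.94% occurred exactly in another annotated Mup transcript. The share was 38.8% for Mup20, all of it shared with the pseudogene Mup-ps19. It was 59.4% for Mup17, 80.1% for Mup16, 83.5% for Mup11, 85.4% for Mup10, 87.1% for Mup7, 87.1% for Mup18, 97.3% for Mup15 and 100% for Mup19. The sources used here give neither the read length nor how the authors' counting placed reads that match several copies. The values of the 8 copies are therefore uncertain one by one: reads of one copy could have been assigned to another or dropped, and the same holds between Mup20 and Mup-ps19.

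**Figure D1:**
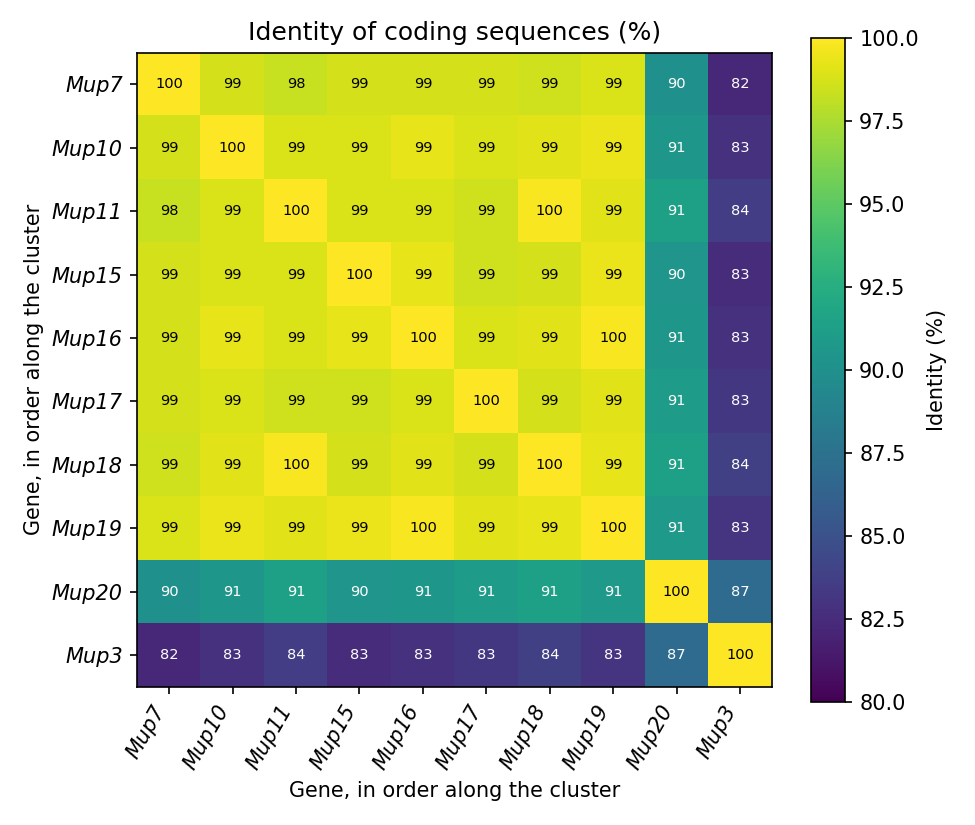
Percent identity between the coding sequences of the 10 genes in the GENCODE annotation, with genes in order along the cluster on both axes and colour and printed number giving identity in percent. The 8 copies form a block at 98.3% to 99.8%, and Mup20 and Mup3 at the end of the cluster stand apart from it and from each other.

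The genes also share their upstream sequence. RefSeq promoter windows of GRCm38.p6 were matched for 8 of the 10 genes (not for Mup16 and Mup20), and the 250 bases before the RefSeq start were read. The letters ATTGAT, the core recognised by the liver factor HNF6, occurred on the opposite strand, where they read as ATCAAT, at 2 places in each of the 8 windows, against 6.72% of the 32851 promoter windows of the same length that held it at least once. The stretch that holds both matches is given for Mup3 and for 3 copies, with the matches in capitals, on the minus strand at chr4:62087400-62087491 (Mup3), chr4:60070477-60070569 (Mup7), chr4:60582292-60582384 (Mup10) and chr4:61439833-61439925 (Mup15).
Mup3: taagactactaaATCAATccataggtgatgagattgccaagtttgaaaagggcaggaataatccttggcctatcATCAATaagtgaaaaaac
Mup7: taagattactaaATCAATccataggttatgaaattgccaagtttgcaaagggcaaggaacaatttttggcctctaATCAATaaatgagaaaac
Mup10: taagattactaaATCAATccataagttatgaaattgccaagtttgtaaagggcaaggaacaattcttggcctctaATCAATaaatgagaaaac
Mup15: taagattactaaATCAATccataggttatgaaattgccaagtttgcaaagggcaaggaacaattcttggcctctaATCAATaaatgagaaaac
The first bases of both matches lay 63 bases apart in Mup7, Mup10 and Mup15 and 62 in Mup3. Searched on both strands, the STAT5 palindrome TTCNNNGAA occurred in 0 of the 8 windows (7.02% of all windows). The exact TATA box letters TATAAA occurred in 0 (12.4%) and the C/EBP palindrome TTGCGCAA in 0 (0.164%). The glucocorticoid receptor motif TGTTCT occurred in Mup3 alone (16.1%). No motif of these lies within another. Only exact letters were searched, so a count of 0 for TATAAA does not mean that a TATA box is absent. The windows of Mup3, Mup10, Mup15, Mup17, Mup18 and Mup19 held the letters TATATAAG near their end. Those of Mup7 and Mup11 ended before these letters could be completed, so their presence in these 2 genes was not read. The second HNF6 match began at base -19 from the RefSeq start in Mup7 and -125 in Mup11, against -146 in Mup15. The windows thus cover different parts of the shared upstream sequence, which also limits the motif counts. The copies derive from one another and are not separate occurrences, and a match in these letters is a description of the window only. Over the aligned bases the windows of the 7 copies were 91.9% to 99.6% identical to each other and that of Mup3 was 84.1% to 88.7% identical to them.

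The table gives FPKM summing to 418101 to 511333 per sample over named entries, and the depth estimated from low values was 16.0 to 26.5 M reads, at which 1 read in a transcript of 927 bases was worth 0.0407 to 0.0675 FPKM. A difference is on the log2(FPKM + 1) scale, tested with limma over all 10577 genes, and a gene passed at a Benjamini-Hochberg adjusted p under 0.05. Hepatocyte markers were abundant in every sample, and the kidney markers Umod, Slc12a1 and Slc34a1 were listed at 0 in every group. Of 4 markers of salivary or lacrimal gland, Smr3a, Pip and Dcpp1 were at 0 in every group, and with Bhlha15 the sum reached at most 0.233 FPKM. The sum of 4 pancreas markers was 2.01 to 5.19 FPKM, with Pnlip, Cpa1 and Prss2 at 0 in both chow groups. Whole liver was sequenced, so fewer hepatocytes and less Mup RNA per hepatocyte cannot be told apart. CDAHFD_RIC sample 1 stood apart for the Mup genes that were still present on CDAHFD, and the comparisons of Mup3 and Mup20, and those counts over gene lists that changed without it, are given with and without it. The median difference of all tested genes was 0.42 in CDAHFD_RIC minus NC_RIC. Of the genes that passed in that comparison, 90.5% were higher, against 49.3% after median-ratio scaling and 47.2% after quantile normalization.

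On chow, Mup transcripts were among the most abundant of the liver. Mup3, the divergent gene at the cluster's end, had 9374, 8887, 8989, 9588 and 9335 FPKM in NC_RIC livers and 8647, 10023, 9421, 9922 and 9365 FPKM in NC_sham livers. Mup20, the darcin gene, had 8488, 15311, 4286, 7021 and 10815 FPKM in NC_RIC livers and 7619, 5395, 7385, 6493 and 7817 FPKM in NC_sham livers. Mup3 was nearly the same in every chow sample, with a coefficient of variation of 3.13% in NC_RIC and 5.78% in NC_sham, while Mup20 varied most in NC_RIC, at 45.3% against 14.4% in NC_sham. By FPKM, Mup20 ranked 3 to 22 among all named entries in NC_RIC livers and 12 to 19 in NC_sham livers, and Mup3 ranked 7 to 12 in NC_RIC and 7 to 11 in NC_sham.

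In NC_sham livers the mean level per length fell in the order Mup3 (9475 ± 548 FPKM, SD, n = 5), Mup20 (6942 ± 1002), Mup7 (4717 ± 676), Mup15 (1930 ± 401), Mup17 (840 ± 305), Mup11 (666 ± 134), Mup18 (594 ± 86.9), Mup10 (547 ± 40.5), Mup16 (381 ± 86.5) and Mup19 (360 ± 77.4). From Mup3 down to Mup17 no gene overlapped the next over the samples. The ranges of Mup17, Mup11, Mup18 and Mup10 overlapped from each to the next, and so did those of Mup16 and Mup19. NC_RIC livers kept the same sequence apart from Mup18 and Mup10, whose means were 546 and 547 FPKM. In NC_RIC the ranges of Mup3 and Mup20 overlapped, and so did those of Mup20 and Mup7. Mup7, Mup15 and the other copies share most of their 100-base windows, so the order among the 8 copies carries the uncertainty of how shared reads were placed.

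**Figure D2:**
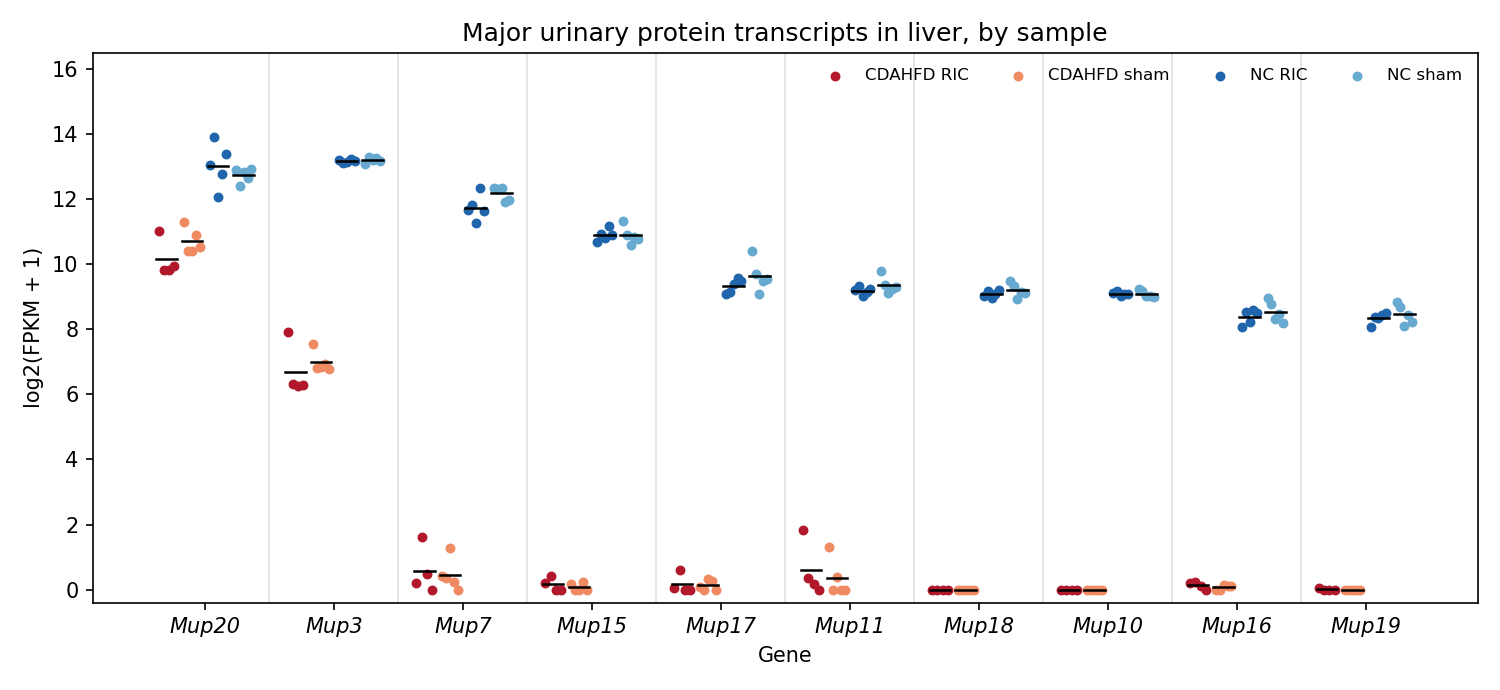
Level of each of the 10 genes as log2(FPKM + 1) in every sample, with CDAHFD RIC, CDAHFD sham, NC RIC and NC sham from left to right within each gene, points for samples and black bars for group means. Every CDAHFD point lies below every chow point of the same gene, Mup20 and Mup3 remain well above 0 on CDAHFD, and the other 8 genes lie at or near 0 there.

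In conditioned mice, CDAHFD livers held far less Mup RNA than chow livers, and the genes fell into a gradient with Mup20 least lowered, Mup3 next and the 8 copies close to or at 0. Mup20 had 2092, 908, 908 and 984 FPKM in CDAHFD_RIC livers, against the 4286 to 15311 FPKM of NC_RIC livers given above. The lowest NC_RIC sample was thus above the highest CDAHFD_RIC sample. The mean was 1223 ± 580 FPKM in CDAHFD_RIC (SD, n = 4) and 9184 ± 4164 in NC_RIC (n = 5), 7.51-fold lower, with a log2 difference of -2.88 ± 0.30 (SE; limma, adjusted p = 1.31e-07). Without CDAHFD_RIC sample 1 the mean of Mup20 was 933 ± 43.7 FPKM in CDAHFD_RIC, 9.84-fold lower. Mup3 had 239, 79.6, 75.6 and 77.4 FPKM in CDAHFD_RIC livers, against 8887 to 9588 FPKM in NC_RIC livers. No CDAHFD_RIC value came near the NC_RIC range, and sample 1 was the highest of its group. The mean of Mup3 was 118 ± 80.9 FPKM in CDAHFD_RIC and 9235 ± 289 in NC_RIC, 78.3-fold lower, with a log2 difference of -6.47 ± 0.25 (limma, adjusted p = 9.68e-14). That fold rested on sample 1: without it the mean of Mup3 was 77.5 ± 2.04 FPKM in CDAHFD_RIC (n = 3), 119-fold lower than in NC_RIC, with a log2 difference of -6.88 ± 0.13 (limma, adjusted p = 4.74e-18).

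The 8 copies were at or below 2.58 FPKM in CDAHFD_RIC livers, with many values at 0. The highest, of Mup11 in sample 1 and of Mup7 in sample 2, were well above the value of 1 read. Mup7, the most abundant copy on chow, had 0.152, 2.04, 0.404 and 0 FPKM in CDAHFD_RIC livers, against 3252, 3628, 2468, 5203 and 3173 FPKM in NC_RIC livers. Every NC_RIC value was far above every CDAHFD_RIC value, and the fitted difference was -11.17 ± 0.28 (SE). No p-value is given for it, since Mup7 entered the test only through chow. Mup10 and Mup18 were listed at 0 in every CDAHFD_RIC library, against 521 to 576 FPKM and 499 to 587 FPKM in NC_RIC livers. Mup19 was listed at 0 in 3 of the 4 CDAHFD_RIC livers and at 0.0247 FPKM in sample 1, and in NC_RIC livers it had 267 to 363 FPKM. Mup15 reached at most 0.345 FPKM in CDAHFD_RIC livers, Mup16 0.177, Mup17 0.510 and Mup11 2.58. Their means in NC_RIC livers were 1925 ± 242, 337 ± 49.7, 655 ± 96.2 and 585 ± 46.6 FPKM. Fold changes are not given for the copies, since most of their CDAHFD values lie at or near the floor of the table. Their fitted differences depend on the pseudocount.

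All 10 genes passed as lower in CDAHFD_RIC than in NC_RIC, where 6.68% of all tested genes passed as lower and 70.3% passed in either direction, and all 10 had groups that did not overlap, against 4.63% of tested genes with every CDAHFD_RIC sample below every NC_RIC sample. The 8 copies had means under 1 FPKM over the CDAHFD samples and entered the test only through chow, so they had to differ and their count supports nothing. Mup3 and Mup20 were at least 1 FPKM on average on either diet. The differences of the 10 genes ran from -11.17 (Mup7) to -2.88 (Mup20), and direction and call were the same in every one of 310 values over all alternatives for this comparison. For the 8 copies this was set by their entry through chow, so it can be read for Mup3 and Mup20 only. Beside this, the summed FPKM of 12 hepatocyte markers was 45555 to 57771 in CDAHFD_RIC and 69520 to 79506 in NC_RIC. That of 8 macrophage markers was 323 to 654 in CDAHFD_RIC and 36.4 to 66.7 in NC_RIC, and that of 6 stellate cell markers was 72.2 to 116 in CDAHFD_RIC and 17.7 to 24.5 in NC_RIC. The part of these cell type differences in the Mup values was not tested.

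**Figure D3:**
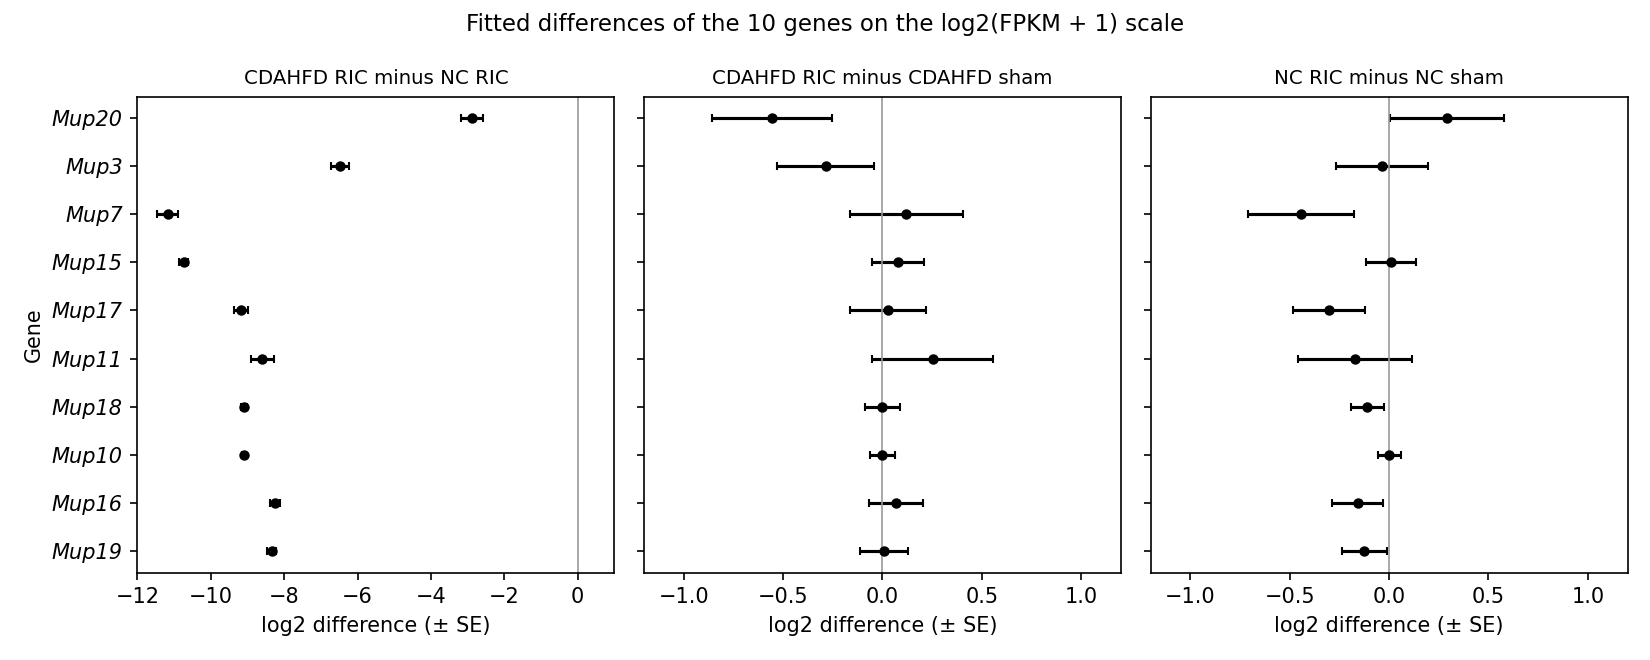
Fitted log2(FPKM + 1) differences of the 10 genes with their standard errors in CDAHFD RIC minus NC RIC, CDAHFD RIC minus CDAHFD sham and NC RIC minus NC sham, with separate horizontal scales for the diet panel and the RIC panels. Diet differences run from -11.17 to -2.88, while RIC differences lie between -0.56 and 0.29 on either diet.

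The sham groups, in which the genes were first noticed, are described by their values alone. Mup20 had 2527, 1352, 1374, 1898 and 1494 FPKM in CDAHFD_sham livers, and Mup3 had 186, 111, 114, 121 and 110 FPKM, against the NC_sham values given above. Neither gene overlapped between the diets, and both kept sample 1 as the highest CDAHFD_sham value. Mup7 had 0.340, 0.273, 1.42, 0.177 and 0 FPKM in CDAHFD_sham livers, against 5200, 5159, 5265, 3897 and 4065 FPKM in NC_sham livers. Mup10, Mup18 and Mup19 were listed at 0 in all 5 CDAHFD_sham livers, and Mup11, Mup15, Mup16 and Mup17 stayed at or below 1.49 FPKM. The fitted differences ran from -11.74 to -2.04. None of the 10 genes overlapped between these groups, where 6.91% of tested genes lay lower in CDAHFD_sham without overlap and 74.2% passed in either direction, a count from which nothing is read.

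On CDAHFD, conditioning could be read from Mup3 and Mup20 only, and neither passed the test, a result that rested on 1 sample. The 8 copies were at or near 0 in both CDAHFD groups, with Mup10 and Mup18 at 0 in all 9 samples, so they could hardly pass or separate. Mup20 averaged 1223 ± 580 FPKM in CDAHFD_RIC (SD, n = 4) and 1729 ± 497 in CDAHFD_sham (n = 5), with a difference of -0.56 ± 0.30 (limma, adjusted p = 0.178). Mup3 averaged 118 ± 80.9 FPKM in CDAHFD_RIC and 128 ± 32.5 in CDAHFD_sham, with a difference of -0.29 ± 0.25 (adjusted p = 0.403). For both genes, CDAHFD_RIC samples 2, 3 and 4 lay below all 5 CDAHFD_sham samples, whereas CDAHFD_RIC sample 1 was above the CDAHFD_sham median. By limma 0 of the 10 genes passed, and 0 had an unadjusted p under 0.05 (the lowest was 0.0819, for Mup20), where 27.3% of all tested genes passed. Groups overlapped for all 10 genes, where 18.4% of tested genes had groups that did not. Because of the copies, nothing is read from these counts of 0 against the shares of all genes. The 8 copies had differences between 0.00 and 0.25, at levels of at most 2.58 FPKM and with many values at 0.

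Without CDAHFD_RIC sample 1, 2 of the 10 genes passed as lower in CDAHFD_RIC than in CDAHFD_sham, against 13.8% of all tested genes that passed as lower in that fit. These were Mup3, with a difference of -0.69 ± 0.13 (limma, adjusted p = 0.00178), and Mup20, with -0.85 ± 0.29 (adjusted p = 0.0445). CDAHFD_sham sample 1 was also the highest of its group for both genes, and without it and CDAHFD_RIC sample 1 together the difference of Mup3 was -0.55 ± 0.07 (adjusted p = 0.000233), while that of Mup20 was -0.70 ± 0.29 and did not pass (adjusted p = 0.0994). In that fit 11.2% of all tested genes passed as lower. Over all alternatives the adjusted p of Mup3 ran from 0.000233 to 0.736 and that of Mup20 from 0.0445 to 0.356. CDAHFD_RIC sample 1 also had the largest summed FPKM of 19 male-biased liver genes in its group, 576 against 289 to 371 in the other 3 samples. Its estimated depth, 26.5 M reads, was the highest of the study. Its hepatocyte marker sum of 56441 lay within the 45555 to 57771 of its group. The part of these values in the Mup levels of the sample was not tested.

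**Figure D4:**
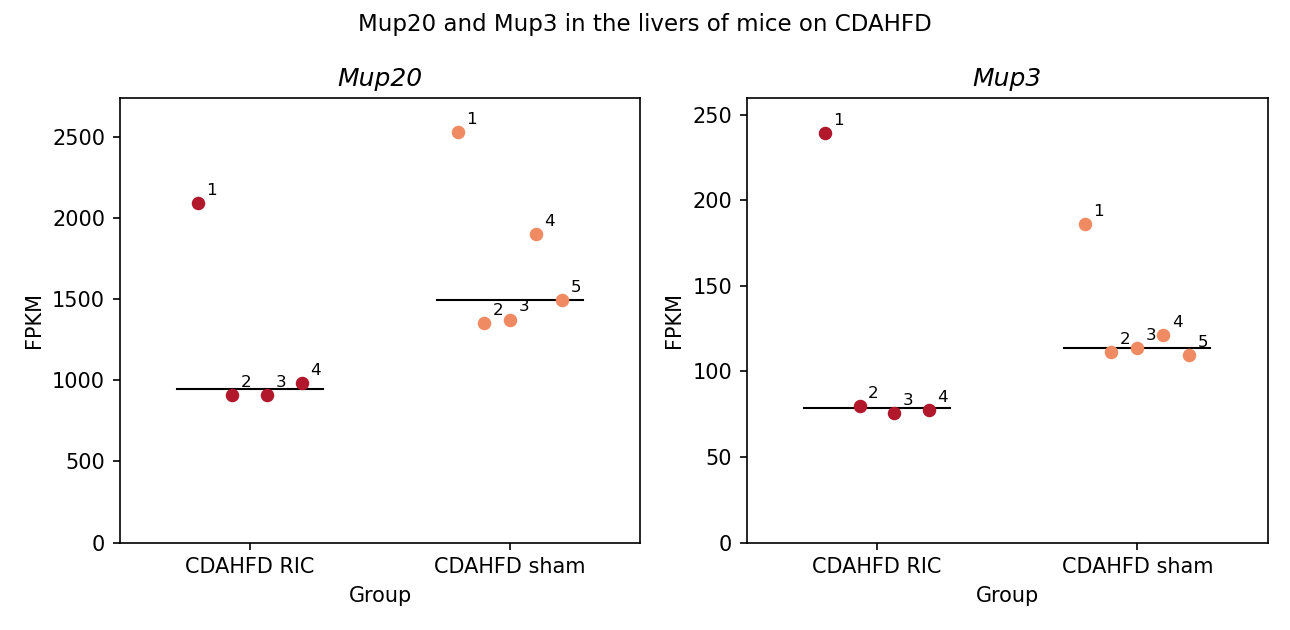
Mup20 (left panel) and Mup3 (right panel) in FPKM in each CDAHFD RIC and CDAHFD sham sample, numbered by replicate, with black lines at group medians. Sample 1 is the highest of each group for both genes, and CDAHFD RIC samples 2, 3 and 4 lie below every CDAHFD sham sample.

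On chow, conditioning left all 10 genes short of the threshold. Mup7 had 3252, 3628, 2468, 5203 and 3173 FPKM in NC_RIC livers, against 5200, 5159, 5265, 3897 and 4065 FPKM in NC_sham livers. Of the NC_RIC samples 4 were below all NC_sham samples and 1 was within their range, and the difference was -0.44 ± 0.27 (limma, adjusted p = 0.431). Mup17 followed with -0.30 ± 0.18 (adjusted p = 0.425), and Mup20 had the highest difference, 0.29 ± 0.29 (adjusted p = 0.671). Mup3 differed by -0.04 ± 0.23 (adjusted p = 0.961). By limma 0 of the 10 passed and 0 had an unadjusted p under 0.05 (the lowest was 0.111), against 1.18% of all tested genes that passed. All 10 groups overlapped, against 4.75% of tested genes whose groups did not.

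Whether conditioning acted differently on the diets was tested as the interaction, the RIC difference on CDAHFD minus that on chow. By limma 0 of the 10 genes passed, against 6.72% of all tested genes. The lowest unadjusted p was 0.0558, so 0 were under 0.05. The copies were at or near 0 in both CDAHFD groups. Their interaction was therefore set by chow and by values near the floor, and cannot show whether conditioning depended on diet. It can be read for Mup3 and Mup20 only, and nothing is read from the count of 0. Mup20 had -0.85 ± 0.42 (limma, adjusted p = 0.229) and Mup3 had -0.25 ± 0.34 (adjusted p = 0.700). Mup7, a copy, had 0.56 ± 0.39, where its difference in NC_RIC minus NC_sham was -0.44, and no p-value is given for it. Without CDAHFD_RIC sample 1, Mup3 passed with -0.65 ± 0.17 (adjusted p = 0.0285), where 2.69% of all tested genes passed as lower. Without sample 1 of both CDAHFD groups it passed with -0.51 ± 0.09 (adjusted p = 0.00504), where 2.56% passed as lower. The interaction shares its samples with both RIC comparisons, and these do not stand as separate evidence.

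The makeup of the Mup pool differed between the diets. The 10 genes together held 0.307 ± 0.147% of the FPKM of named entries in CDAHFD_RIC, 0.393 ± 0.0963% in CDAHFD_sham, 5.35 ± 0.836% in NC_RIC and 5.40 ± 0.281% in NC_sham. Mup20 made up 91.6 ± 1.36% of their sum in CDAHFD_RIC and 93.0 ± 0.697% in CDAHFD_sham, against 32.9 ± 10.1% in NC_RIC and 26.2 ± 3.49% in NC_sham. Mup3 made up 8.32 ± 1.32% in CDAHFD_RIC and 6.98 ± 0.673% in CDAHFD_sham, against 35.2 ± 6.20% in NC_RIC and 36.0 ± 3.54% in NC_sham. The 8 copies together made up 0.134 ± 0.147% in CDAHFD_RIC and 0.0538 ± 0.0548% in CDAHFD_sham, against 31.9 ± 5.07% in NC_RIC and 37.8 ± 3.96% in NC_sham. None of these shares overlapped between the diets in either pair of groups.

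The ratio of Mup20 to Mup3 within a sample, which does not change with scaling between samples, was 8.74, 11.4, 12.01 and 12.7 in CDAHFD_RIC livers, against 0.905, 1.72, 0.477, 0.732 and 1.16 in NC_RIC livers. It was 12.1 to 15.7 in CDAHFD_sham livers and 0.538 to 0.881 in NC_sham livers. Mup20 exceeded Mup3 in every CDAHFD sample, and in 2 of the 10 chow samples. CDAHFD_RIC sample 1, in which both genes were highest of its group, had the lowest ratio of the CDAHFD samples. The transcript of albumin, the main plasma protein, averaged 30916 FPKM in CDAHFD_RIC, 24729 in CDAHFD_sham, 48982 in NC_RIC and 34829 in NC_sham. The 10 genes summed to a mean of 26885 FPKM in NC_RIC and 26453 in NC_sham, so their percentage of albumin on chow moves with albumin. Against that transcript the 10 genes together reached 4.31 ± 1.71% in CDAHFD_RIC and 7.71 ± 2.93% in CDAHFD_sham, against 55.6 ± 12.6% in NC_RIC and 77.7 ± 16.0% in NC_sham. Even so, Mup20 ranked 34 to 57 among all named entries in CDAHFD_RIC livers and 35 to 47 in CDAHFD_sham livers, while Mup3 ranked 170 to 558 in CDAHFD_RIC and 260 to 417 in CDAHFD_sham.

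**Figure D5:**
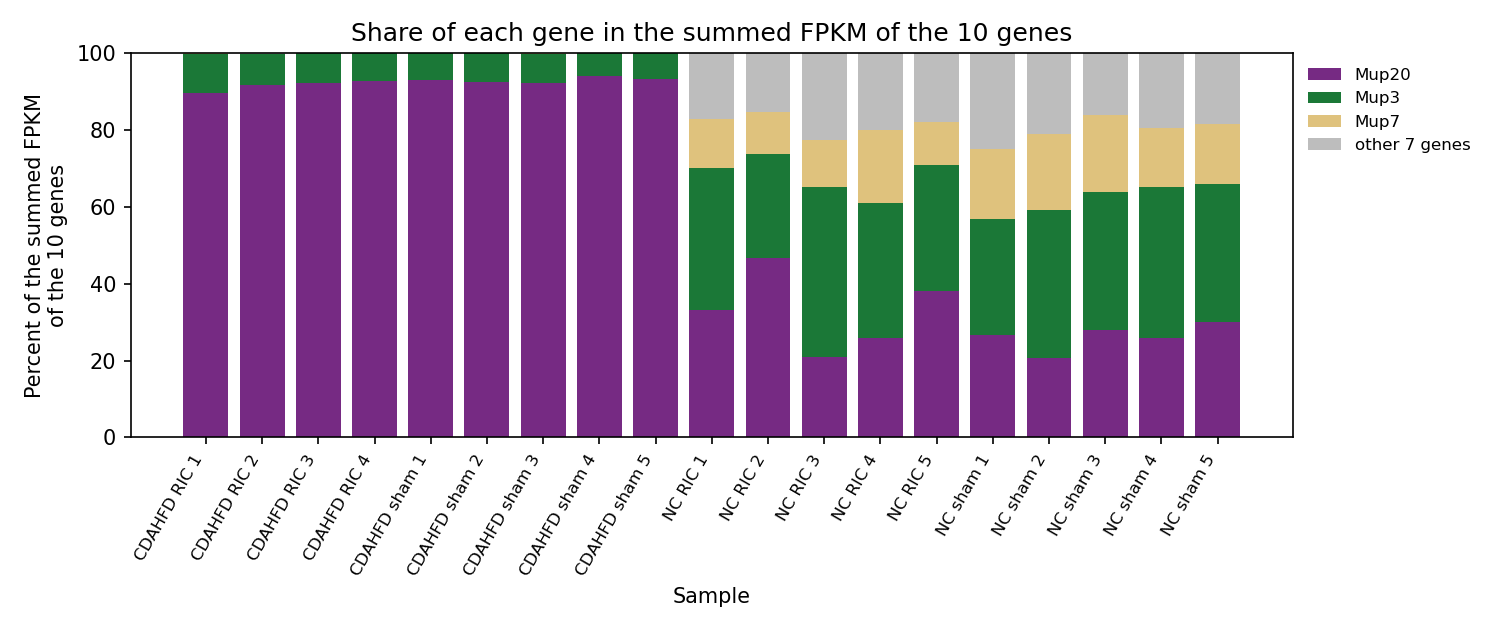
Share of Mup20, Mup3, Mup7 and the other 7 genes in the summed FPKM of the 10 genes in each sample, as stacked bars from 0 to 100 percent. In CDAHFD samples Mup20 holds 89.6% to 94.0% and Mup3 nearly all the rest, while in chow samples the pool is divided among Mup20, Mup3, Mup7 and the other copies.

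Among the chow samples the copies varied together and apart from the divergent genes. Over the 10 chow samples, with each gene centred on its group mean, Pearson r between pairs of the 7 copies other than Mup7 was 0.552 to 0.931, with a median of 0.811 over 21 pairs. Mup7 had r of 0.205 to 0.529 with those 7 copies, Mup20 -0.143 to 0.423 and Mup3 -0.584 to -0.198. These correlations are descriptions. The genes share libraries, and the copies share most of their transcript sequence, so their values are not separate measurements. NC_sham sample 1 had the highest value of its group for Mup10, Mup11, Mup15, Mup16, Mup17, Mup18 and Mup19.

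The table held 38 other Mup entries, 11 genes and 27 pseudogenes, and 8 of these genes and 5 of these pseudogenes averaged 1 FPKM or more over all samples. Every CDAHFD_RIC sample lay below every NC_RIC sample for 9 of the 11 genes and 11 of the 27 pseudogenes, where the share was 4.63% of tested genes. Entries that are near 0 on CDAHFD and present on chow could only differ in this direction, and nothing is read from that count. Of these entries 4 genes and 18 pseudogenes were listed at 0 in all CDAHFD samples, including 4 pseudogenes at 0 in all 19 samples. Mup2, another gene of the family, averaged 0.374 FPKM in CDAHFD_RIC and 231 FPKM in NC_RIC, and Mup14 averaged 0.293 FPKM in CDAHFD_RIC and 254 FPKM in NC_RIC. Mup1 was listed at 0 in every CDAHFD sample, against 62.1 to 98.5 FPKM in NC_RIC. Mup4 and Mup5, known from tissues other than liver, stayed below 1 FPKM in all samples.

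Among those 38 entries the pseudogene Mup-ps19 was the only one with a CDAHFD_RIC mean above 1 FPKM. It had 1043, 434, 436 and 447 FPKM in CDAHFD_RIC livers, against 4493, 8535, 2245, 3795 and 5774 FPKM in NC_RIC livers. It stood at 39.6% to 55.7% of the Mup20 value in 18 samples. In CDAHFD_sham sample 5 it had 25.5 FPKM, 1.71% of the Mup20 value of that sample, whereas Mup20 there was within the range of its group. Mup-ps19 holds all the 100-base windows that Mup20 shares with other Mup transcripts, so reads of Mup20 and of Mup-ps19 cannot be told apart over those windows.

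The genes that flank the cluster mostly passed as higher. Within 2 Mb before the cluster, 8 of 20 annotated protein-coding genes were tested, and in CDAHFD_RIC minus NC_RIC 7 passed as higher and 0 as lower. Within 2 Mb after it, 14 of 31 were tested, and 11 passed as higher and 1 as lower, with differences from -0.29 to 3.86. Across all tested genes 63.6% passed as higher in this comparison. The highest of these neighbours was Orm2, an acute phase lipocalin, with 168 ± 74.2 FPKM in CDAHFD_RIC and 9.90 ± 2.0 in NC_RIC (3.86, limma, adjusted p = 7.75e-11).

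Growth hormone signalling, the main known input to Mup transcription, was read from 16 genes, of which 14 were tested. In CDAHFD_RIC minus NC_RIC 9 passed as higher and 2 as lower, where 63.6% of all tested genes passed as higher and 6.68% as lower. The median of 0.42 equalled that of all tested genes to 2 decimals. After median-ratio scaling 6 were higher and 3 lower, and without CDAHFD_RIC sample 1, 9 were higher and 3 lower. Ghr, the growth hormone receptor, averaged 19.4 ± 4.47 FPKM in CDAHFD_RIC and 37.2 ± 2.48 in NC_RIC, a difference of -0.92 (limma, adjusted p = 1.07e-06) that passed in every alternative. Socs2, a STAT5 target that damps the receptor's signal, was higher, with 3.51 ± 1.64 FPKM in CDAHFD_RIC and 1.07 ± 0.769 in NC_RIC (1.12, adjusted p = 0.000602). Ptpn1, a phosphatase of cytokine receptor signalling, was higher by 1.24 (adjusted p = 5.47e-09), and Igfbp3, a carrier of insulin-like growth factors, by 1.53 (adjusted p = 4.78e-06). Stat5b, the transducer of the male growth hormone pattern, passed with 0.39 (adjusted p = 0.0089) but had -0.09 after median-ratio scaling and -0.11 after quantile normalization. Igf1, the hormone that growth hormone induces, passed with -0.43 (adjusted p = 0.0145), a call lost when samples were scaled to a common sum. In CDAHFD_RIC minus CDAHFD_sham 1 of the 14 passed, where 27.3% of all tested genes passed. This was Bcl6, a repressor with more RNA in male liver. It was lower (-1.14, adjusted p = 0.00198), with 1.12 ± 0.164 FPKM in CDAHFD_RIC and 3.81 ± 1.35 in CDAHFD_sham. Without CDAHFD_RIC sample 1, 3 of the 14 passed as lower, where 13.8% of all tested genes passed as lower. The additional genes were Ghr, with -0.29 ± 0.10 (limma, adjusted p = 0.0404, against 0.368 with sample 1), and Igfals, which keeps insulin-like growth factors in a blood complex, with -1.01 ± 0.23 (adjusted p = 0.00594, against 0.165).

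Of 19 transcription factors known to act on Mup genes or on sex-biased liver genes, 17 were tested. In CDAHFD_RIC minus NC_RIC 5 passed as higher and 3 as lower, where 63.6% of all tested genes passed as higher and 6.68% as lower. The counts were 1 and 9 after median-ratio scaling, so their direction depended on the scaling, and 5 and 1 without CDAHFD_RIC sample 1. Hnf4a, a factor central to hepatocyte identity, averaged 83.1 ± 13.9 FPKM in CDAHFD_RIC and 111 ± 12.9 in NC_RIC (-0.42, limma, adjusted p = 0.00356), a call lost when samples were scaled to a common sum. Zhx2, whose natural variant alters Mup levels between mouse strains, passed with 0.50 (adjusted p = 0.00196), a call lost after median-ratio scaling. Trim24, a nuclear receptor cofactor, was higher by 0.76 (adjusted p = 2.37e-06). On CDAHFD 2 of the 17 passed as higher in conditioned livers and 2 as lower, where 27.3% of all tested genes passed, and 2 and 1 without CDAHFD_RIC sample 1. Conditioned livers had more Ppara, the fatty acid sensing receptor, with 20.7 ± 5.90 FPKM in CDAHFD_RIC and 7.35 ± 2.53 in CDAHFD_sham (1.38, adjusted p = 0.000265). Rxra, its partner, was also higher (0.51, adjusted p = 0.00208), and Foxa3, a factor of the hepatocyte network, was lower (-1.07, adjusted p = 0.00151).

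Other genes known for more RNA in male liver were read from a list of 19. Of these male-biased genes 17 were tested, and 17 passed as lower in CDAHFD_RIC than in NC_RIC, with a median of -2.63, where 6.68% of all tested genes passed as lower. It was 17 also after each rescaling. Like the Mup copies, 5 of the 17 averaged under 1 FPKM on CDAHFD, entered the test through chow and had to differ, so this count and median support nothing. Serpina1e, a protease inhibitor of plasma, averaged 43.3 ± 10.9 FPKM in CDAHFD_RIC and 3274 ± 654 in NC_RIC (-6.21, limma, adjusted p = 2.42e-16). Elovl3, a fatty acid elongase, averaged 0.726 ± 0.602 FPKM in CDAHFD_RIC and 77.0 ± 29.3 in NC_RIC, a fitted difference of -5.47. No p-value is given for Elovl3, which averaged under 1 FPKM on CDAHFD and entered the test only through chow. Slco1a1, an organic anion transporter, averaged 0.997 ± 0.264 FPKM in CDAHFD_RIC, 0.236 ± 0.0649 in CDAHFD_sham and 82.4 ± 23.6 in NC_RIC. It was the only one of the 17 to pass for conditioning on CDAHFD, as higher (0.68, adjusted p = 0.00661), at levels near 1 FPKM. In that comparison 27.3% of all tested genes passed.

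Of 21 female-biased genes 13 were tested, and in CDAHFD_RIC minus NC_RIC 11 passed as higher and 1 as lower, with a median of 2.17, where 63.6% of all tested genes passed as higher. After median-ratio scaling 7 of 11 passed as higher and 1 as lower, and without CDAHFD_RIC sample 1, 10 of 12 passed as higher and 1 as lower. Cyp2a4, a cytochrome that oxidises steroids, averaged 116 ± 22.9 FPKM in CDAHFD_RIC and 0.706 ± 1.23 in NC_RIC. Cyp2b9, another cytochrome, averaged 80.2 ± 35.9 FPKM in CDAHFD_RIC and 0.573 ± 0.974 in NC_RIC. Both are among the 11 higher genes, averaged under 1 FPKM on chow and entered the test through CDAHFD. They had to differ, so no p-value is given. On CDAHFD 4 of the 13 passed as higher in conditioned livers and 0 as lower, where 8.72% of all tested genes passed as higher. Without CDAHFD_RIC sample 1 it was 2 of 12, after median-ratio scaling 3 of 11 and with no filter on low values 3 of 21. The 4 genes included Acot3, an acyl-CoA thioesterase, with 12.3 ± 8.74 FPKM in CDAHFD_RIC and 3.34 ± 1.33 in CDAHFD_sham (1.49, limma, adjusted p = 0.00435).

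Lipocalins outside the Mup family were mixed. Of 8 tested, 5 passed as higher in CDAHFD_RIC than in NC_RIC and 1 as lower, where 63.6% of all tested genes passed as higher. The split was 3 higher and 3 lower after median-ratio scaling and 5 higher and 1 lower after quantile normalization. It was 4 higher and 1 lower without CDAHFD_RIC sample 1. Lcn2, an iron-siderophore binding acute phase protein, averaged 146 ± 39.6 FPKM in CDAHFD_RIC and 2.11 ± 1.06 in NC_RIC (5.60, limma, adjusted p = 2.31e-12). The 1 lower gene, C8g, a chain of complement component 8, averaged 85.7 ± 15.3 FPKM in CDAHFD_RIC and 164 ± 10.5 in NC_RIC (-0.94, adjusted p = 1.08e-07). Of 24 plasma proteins made by hepatocytes, 14 passed as lower and 5 as higher, where 6.68% of all tested genes passed as lower and 63.6% as higher. The split was 18 lower and 1 higher after median-ratio scaling and 7 lower and 6 higher after quantile normalization. Without CDAHFD_RIC sample 1 it was 14 lower and 4 higher. Serpina3k, a serpin, was lower (-3.27, adjusted p = 3.91e-12), and Alb was lower (-0.68, adjusted p = 0.00013) except after quantile normalization, where it did not pass. Its difference was 0.00 in that setting. Quantile normalization gives 1 value to a gene that holds the same rank in every sample, so nothing is read from this exception.

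Outside the family, the tested genes whose variation within groups was most like that of the summed 10 genes were the mitochondrial tRNA genes mt-Tq and mt-Tm, the acyl-CoA synthetase gene Acsm5 and the cytochrome genes Cyp1a2 and Cyp2c54. Pearson r of group-centred log2 values over the 19 samples was 0.853 for mt-Tq, 0.833 for Acsm5, 0.830 for Cyp1a2, 0.816 for Cyp2c54 and 0.809 for mt-Tm. The likeness came mainly from the CDAHFD samples, where r was 0.870 to 0.962 over 9 samples that include sample 1 of each group. Over the 10 chow samples r was 0.353, 0.382, 0.586, -0.221 and 0.052 for these genes in the same order. The points share libraries and depth, and the 5 genes were picked for the highest values among all tested genes.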

How the data were processed

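Per the labels, Trizol was used to isolate total liver RNA and a VAHTS kit to build the libraries. The submitters' processing notes name the assembly mm10 and the tools HISAT2 2.2.1, Trimmomatic 0.38, FastQC 0.11.9, HTSeq 0.13.5, R 3.4.1 and DESeq2 1.18.1, with no role for any of them. Expression is held in 1 table of FPKM that the authors deposited, with 1 column per sample. The program and annotation behind the FPKM, the read length and strandedness are not given in the sources used here. Of 55335 entries, the 3225 without a gene name, which held 0.123% to 0.204% of the FPKM, were left out.

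FPKM are not counts, so log2(FPKM + 1) was tested with limma 3.58.1 in R 4.3.3 (eBayes with trend, 1 mean per group, 19 samples, 15 residual degrees of freedom, two-sided, Benjamini-Hochberg over the 10577 genes whose mean reached 1 FPKM). A difference on this scale understates the change of genes near the pseudocount of 1. Low values were whole reads, within 0.02, in 18.7% to 23.0% of cases, where evenly spread values would give 4%, so whole reads could not be recovered and depth is an estimate. The script was tested on simulated data. Sequences were compared with biopython 1.88 in python 3.11.15, with only Mup-named GENCODE transcripts, and promoter motifs were chosen with the start of some promoter sequences in view.

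The 10 genes, the gene lists and the tests were chosen with earlier results of these data known. Genes named were all 10, the other Mup entries by range, up to 4 genes per list with the smallest p in CDAHFD_RIC minus NC_RIC, up to 2 with the smallest p in CDAHFD_RIC minus CDAHFD_sham, a fixed set (Ghr, Stat5b, Socs2, Igf1, Zhx2, Hnf4a, Lcn2 and Alb), the 5 genes most like the summed Mups, and flanking genes by count. Not all list genes this gives are printed, and Orm2 as a neighbour was named after its value was seen. Alternatives were another pseudocount, no filter, 4 rescalings, array weights, fits to the groups of a comparison only, a replicate block, and leaving out samples. Leaving out sample 1 of every group, and of both CDAHFD groups, was added after seeing the data.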

Additional observations from a re-analysis of the deposited data

Results flagged for a closer look

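Of 63 groups of values of Mup entries with a mean of at least 1 FPKM, 7 had a sample far from the others, where chance gives about 5 percent of groups. CDAHFD_RIC sample 1 was far above the other 3 samples of its group for Mup3 (239 FPKM, against 75.6 to 79.6), for Mup20 (2092 FPKM, against 908 to 984), for the pseudogene Mup-ps19 (1043 FPKM, against 434 to 447) and for the sum of the 10 genes (2334 FPKM, against 984 to 1061). These are not separate events, since Mup20 makes up most of the sum and shares sequence with Mup-ps19. CDAHFD_sham sample 1 was far above its group for Mup3 (186 FPKM, against 110 to 121). NC_sham sample 1 was far above its group for Mup14 (367 FPKM, against 227 to 261). NC_sham sample 3 had 227 FPKM of Mup21, the gene next to Mup3 in the cluster, against 15.2 to 22.3 FPKM in the other NC_sham samples.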

How the results depend on the processing

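Of 310 values per comparison of the 10 genes over all alternatives, all 310 kept direction and call in CDAHFD_RIC minus NC_RIC, and in NC_RIC minus NC_sham 0 of the 10 genes passed in any alternative. In CDAHFD_RIC minus CDAHFD_sham the number of the 10 genes that passed was 0 and ran from 0 to 2 with each sample left out. It was 1 without sample 1 of every group and 1 without sample 1 of both CDAHFD groups. In the interaction it ran from 0 to 1, and was 1 and 1 in those fits. All genes that passed in CDAHFD_RIC minus CDAHFD_sham numbered 2886, against 1868 in the fit to these groups only, 1582 without sample 1 of every group and 1745 without sample 1 of both CDAHFD groups. Of the 2886, 31.9% were higher, against 55.4% after scaling to a common sum, 56.1% after median-ratio scaling and 50.5% after quantile normalization. In NC_RIC minus NC_sham 125 genes passed, against 48 without a filter, 59 after quantile normalization, 401 with array weights, 46 in the fit to these groups only, 10 without sample 1 of every group and 13 to 178 with each sample left out. In the interaction 711 passed, against 1258 without CDAHFD_sham samples 2 and 5, 451 without sample 1 of every group and 440 to 1029 with each sample left out. The median difference of the 10 genes between the sham groups was -9.06, and -11.96 with a pseudocount of 0.1, since the copies lie near 0 on CDAHFD. The causes were otherwise not tested.

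Samples with the same replicate number varied together little (27 pairs, r -0.174 to 0.176, median 0.0258, 6 above 0.1). Samples with different numbers had r of -0.327 to 0.233 (108 pairs, median 0.00364, 14 above 0.1). Values this weak cannot decide whether the numbers pair the samples, and the main fit treats them as unpaired. With a replicate block, 79 genes passed in NC_RIC minus NC_sham, 2547 in CDAHFD_RIC minus CDAHFD_sham, 600 in the interaction and 7450 in CDAHFD_RIC minus NC_RIC, and the 10 genes kept their calls. Depth limits the copies on CDAHFD, where values of 0 and of 1 read cannot be ordered.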
